A study of Mus musculus with 12 samples.

Results

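Long noncoding RNAs (lncRNAs) are transcripts without a recognised protein product. The 200 most abundant of them in these mouse kidneys are described here. They are the 200 rows with the biotype lncRNA and the highest mean FPKM over all 12 libraries, out of 11288 lncRNA rows and 56748 rows in the deposited gene table. FPKM is a read level scaled to library size and to the length of the gene model, so levels of different genes can be set side by side. The members were therefore chosen on the same FPKM values that are described below, though not on a difference between groups.

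The 12 libraries form 4 groups of 3. The cKO IR and cKO sham kidneys came from mice with a conditional deletion of Krt20 in renal proximal tubular cells, and the WT IR and WT sham kidneys from wild-type mice. IR is ischemia/reperfusion, here a clamp on both renal pedicles for 30 min, with the kidneys collected 24 h after its release. Sham mice had the same surgery without the clamp. All mice were male and 8 to 12 weeks old. The labels name neither the Cre driver of the deletion nor separate animals for the libraries, and p-values therefore speak of the spread among libraries, which may be technical.

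Nuclear lncRNAs such as Malat1 and Neat1 take part in the organisation of nuclear bodies. Others are made mainly as carriers of small RNAs, since snoRNAs and miRNAs are cut out of their introns or exons. Many more are transcribed from the promoter or the opposite strand of a protein-coding gene, and a large share of such transcripts has no known function. In kidney, the proximal tubule makes up most of the cortex and is the segment most sensitive to ischemia, so transcripts of its cells weigh heavily in whole-kidney RNA.

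Promoter sequence is shown for the 3 largest decreases in WT after IR on the log2(FPKM + 1) scale, since they are among the 63 members that were lower after IR in both genotypes. Each window runs from 250 bases before to 50 bases after a RefSeq transcription start on GRCm38.p6, 5′ to 3′. Capitals mark TATAAA, the TATA box letters, on either strand. The windows lie at chr7:140905771-140906070, plus strand, at chr10:116964490-116964789, plus strand (the first of 2 windows of this gene), and at chr1:105116203-105116502, plus strand.
BC024386: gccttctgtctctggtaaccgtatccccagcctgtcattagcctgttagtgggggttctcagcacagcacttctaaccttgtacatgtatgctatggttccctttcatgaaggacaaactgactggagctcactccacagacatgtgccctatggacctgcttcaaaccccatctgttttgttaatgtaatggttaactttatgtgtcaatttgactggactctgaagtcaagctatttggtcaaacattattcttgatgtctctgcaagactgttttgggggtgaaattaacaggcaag
D630029K05Rik: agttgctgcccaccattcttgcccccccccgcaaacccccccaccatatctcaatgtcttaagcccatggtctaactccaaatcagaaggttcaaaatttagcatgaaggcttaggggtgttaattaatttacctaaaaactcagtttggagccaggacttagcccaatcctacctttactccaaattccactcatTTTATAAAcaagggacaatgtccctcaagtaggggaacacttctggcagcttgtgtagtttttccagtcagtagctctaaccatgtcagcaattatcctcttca
Gm29012: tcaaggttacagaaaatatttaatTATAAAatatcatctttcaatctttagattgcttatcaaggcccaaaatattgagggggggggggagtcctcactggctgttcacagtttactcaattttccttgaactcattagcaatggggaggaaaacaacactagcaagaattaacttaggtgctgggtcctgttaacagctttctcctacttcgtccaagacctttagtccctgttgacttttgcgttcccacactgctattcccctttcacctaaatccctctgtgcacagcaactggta
The D630029K05Rik window holds 2 overlapping matches, one on each strand, with the first base at -54 from the start. The Gm29012 window holds 1, at -226, and the BC024386 window holds 0. No match overlapped one of the other motifs searched, namely CAAAGTCCA (for HNF4), TGACNNNGC (for NRF2) and TGANTCA (for AP-1), each read on both strands, and none of these was found in the 3 windows. TATAAA was found in 13.6% of all 32851 RefSeq promoter windows, in 12 of the 91 windows of the 75 members with a match in the table (13.2%), and in 5 of the 36 windows of members lower in both genotypes (13.9%). The share was 3 of 13 windows (23.1%) for members higher in both. A match of letters is a description of the window and does not show that a factor binds there.

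The 40 bases around a start are shown for 5 lncRNAs that carry snoRNAs, 4 of them higher after IR in both genotypes, because genes of this kind are known for a run of pyrimidines at the start. Where a gene had several windows, the one with the longest run is shown. Capitals mark the longest run of C and T that touches the 10 bases on either side of the start, which lies after base 20.
Gas5: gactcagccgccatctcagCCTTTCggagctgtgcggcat
Snhg1: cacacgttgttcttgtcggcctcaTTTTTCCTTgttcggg
Snhg8: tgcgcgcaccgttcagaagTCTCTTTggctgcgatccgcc
1110038B12Rik: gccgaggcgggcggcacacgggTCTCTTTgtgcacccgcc
2410006H16Rik: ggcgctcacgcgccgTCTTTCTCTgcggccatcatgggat
They lie on GRCm38.p6 at chr1:161035146-161035185, plus strand, chr19:8723467-8723506, plus strand, chr3:123508317-123508356, minus strand, chr17:34952452-34952491, minus strand, and chr11:62602857-62602896, plus strand. A run of at least 6 was present in 8 of the 11 windows of snoRNA-carrying members (72.7%), against 29.2% of all promoter windows. Mir22hg, which differed between the genotypes in its change after IR, carries the miRNA given next with its seed (bases 2 to 8) in capitals, at chr11:75463772-75463793, plus strand of GRCm38.p6.
mmu-miR-22-3p: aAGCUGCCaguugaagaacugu

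Each library held 13187531 to 15962303 reads, recovered from FPKM and gene length. Krt20, the targeted gene, had 28.2, 35.6 and 47.0 FPKM in the cKO IR libraries, against 84.0, 64.9 and 59.9 FPKM in the WT IR libraries. In sham it had 0.0343, 0 and 0 FPKM in the cKO libraries, against 0.0384, 0 and 0.157 FPKM in the WT libraries. The cKO IR libraries lay below the WT IR libraries but still held Krt20 reads, and the sham levels were too low to check the label. WT IR 2 stood apart from its group, with 9.84 on the first principal component of all tested genes, against 34.9 and 42.1 in the other WT IR libraries and -36.7 to -39.1 in WT sham, and the WT values without it are given beside each member named whose call they changed. The 20 proximal tubule markers summed to 10997 to 14750 FPKM in cKO IR, against 25168 to 31297 in cKO sham, and to 8843 to 20529 FPKM in WT IR, against 30830.5 to 33820.0 in WT sham. The labels give kidney as the tissue but name retinas in their extraction text, and 5 retina markers summed to at most 0.567 FPKM in any library.

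The members' means ran from 2.91 to 307 FPKM, and 110 of the 200 lay under 5 FPKM. Malat1 was the only one over 100 FPKM and 41 lay over 10 FPKM. The cutoff divided close values, with 2.92, 2.91 and 2.91 FPKM for the last 3 members and 2.89, 2.89 and 2.89 FPKM for the next 3 lncRNAs. Most have no established name: 93 carry a Gm number, 31 a RIKEN clone name, 5 a cDNA or EST name and 46 only an identifier, while 25 have a gene symbol. Gene models were 96 to 21163 bases long with a median of 1287.5, and 4 were shorter than the 200 bases usual for the class. The reads of a member summed over the 12 libraries were 66 at the lowest and 1335.5 at the median. Ranking by the median FPKM kept 194 of the 200 members, and ranking by reads, which favours long genes, kept 121.

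By the table's coordinates, 71 members overlap a protein-coding gene on the opposite strand and 16 one on the same strand. Another 33 start within 1 kb of a protein-coding gene's start in the divergent direction, 4 begin within 1 kb downstream of one, and 76 have none of these positions. Where the overlap had to cover at least 50% of the lncRNA's span, 57 of the 87 overlapping members remained. The library kit given in the labels is not stated to keep strand, so the reads of a member and of a gene it overlaps cannot be told apart. This limit applies to every overlapping member named below. Coordinates are those of the deposited table, which does not name their genome build. Their positions differ from the GRCm38.p6 positions of the sequences above, and the submitters' processing notes name mm8 and mm9 without saying what each was used for.

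The 10 most abundant members were Malat1 (307 FPKM), BC024386 (56.7 FPKM), Gm15347 (52.6 FPKM), Gm10076 (44.4 FPKM), Neat1 (40.6 FPKM), D630029K05Rik (37.8 FPKM), Gm12121 (37.3 FPKM), Norad (33.7 FPKM), ENSMUSG00000121141 (33.4 FPKM) and Gm39079 (30.9 FPKM). Malat1 (chr19:5845717-5852704), a nuclear speckle RNA, made up 17.7 to 22.6% of the members' summed FPKM in the IR libraries and 10.2 to 14.7% in the sham libraries. Without Malat1, the other members summed to 1239 to 1443 FPKM in cKO IR, against 1749 to 1792 in cKO sham, and to 1201 to 1534 FPKM in WT IR, against 1952 to 2095 in WT sham. All 6 IR libraries lay below all 6 sham libraries. WT IR 2 was the highest of the IR libraries.

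**Figure D1:**
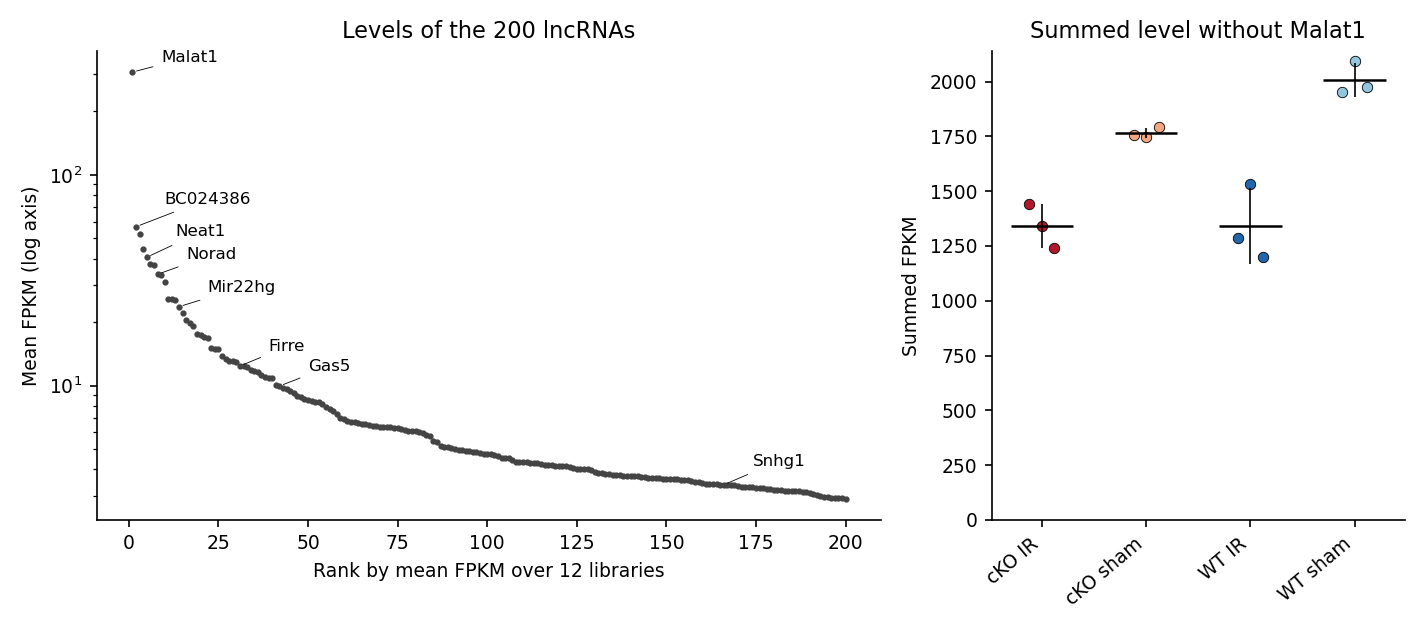
Left: mean FPKM over the 12 libraries (log axis) against rank for the 200 lncRNAs, one point each, with 8 named. Right: summed FPKM of the members other than Malat1 in each library (points), with the group mean (bar) and SD (line, n = 3); the IR libraries sit between 1201 and 1534 and the sham libraries between 1749 and 2095.

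After IR, more of the abundant lncRNAs were lower than higher in either genotype. In cKO kidneys 80 of the 200 were called lower (23.1% of all tested genes were) and 28 higher (27.8% of all). In WT kidneys 76 were called lower (19.5% of all tested genes) and 25 higher (22.6% of all). A call is an adjusted p under 0.05 in limma's moderated test on log2(FPKM + 1), with Benjamini-Hochberg adjustment over the 12868 genes that averaged 1 FPKM or more. The members' median log2 difference was -0.33 in cKO and -0.37 in WT, beside 0.02 and 0.01 over all tested genes. The 394 less abundant lncRNAs that were tested went the same way, with 131 lower and 23 higher in cKO and 104 lower and 21 higher in WT, and medians of -0.26 and -0.25. Protein-coding genes had more calls upward than downward, with 3317 higher and 2637 lower in cKO, and 2730 higher and 2231 lower in WT. In whole-kidney RNA, fewer cells of a type and less of a transcript per cell cannot be told apart.

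Among the members called lower, 63 were so in both genotypes, which is 78.8% of those lower in cKO and 82.9% of those lower in WT. Called higher in both were 17, or 60.7% of those in cKO and 68% of those in WT. The matching shares over all tested genes were not counted, so this overlap cannot be read as particular to these lncRNAs. Both comparisons also share an estimate of the spread. Another 72 were called in neither, and Mir22hg alone had opposite calls. A log2 difference of at least 1 in size was reached by 43 of the lower and 14 of the higher members in cKO, and by 41 of the lower and 8 of the higher in WT. Over all 12868 tested genes it was reached by 902 lower and 737 higher in cKO, and by 603 and 481 in WT. Leaving out WT IR 2 gave 91 lower and 27 higher members in WT, beside 2914 lower and 3133 higher of all tested genes. Scaling by plain library totals moved the median log2 difference of all genes in WT up by 0.13, and 69 members were then lower and 32 higher. Of all tested genes, 1845 were then lower and 4160 higher. Because a mean over all libraries can be carried by a single group, the levels were also counted by group: 138 members reached the lowest member's mean of 2.91 FPKM in cKO IR, 179 in cKO sham, 155 in WT IR and 176 in WT sham. Only 103 reached it in all 4 groups. A group mean under 1 FPKM was found for 11 members, for 10 of them in IR groups only. Members that owe their place to the sham groups tend to be lower after IR by that choice.

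**Figure D2:**
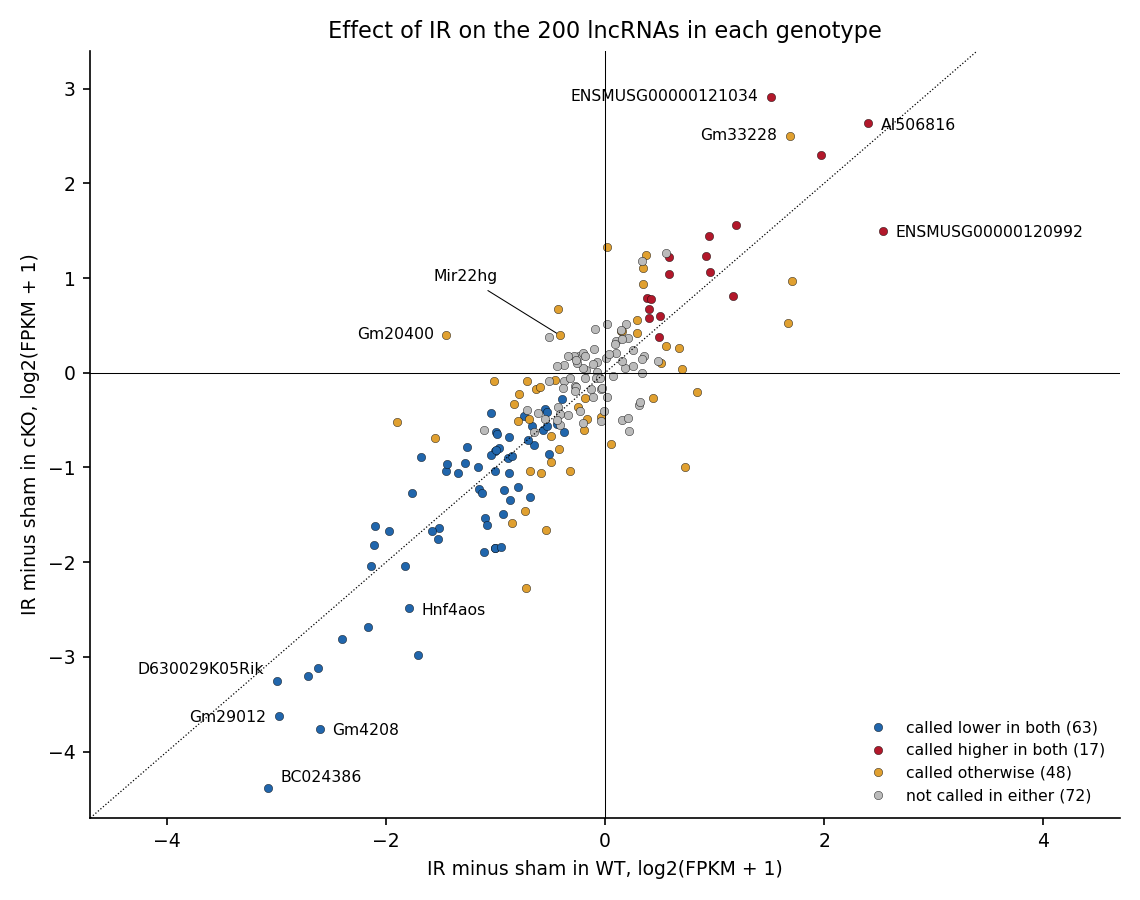
Each point is one of the 200 lncRNAs, placed by its IR minus sham difference on the log2(FPKM + 1) scale in WT (horizontal) and cKO (vertical); colours give the calls and the dotted line marks equal differences. The 63 members lower in both genotypes fill the lower left, the 17 higher in both the upper right, and Mir22hg and Gm20400 lie in the upper left.

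The large decreases and increases described next were picked among called members with separate IR and sham groups. A call and separate groups therefore came with the choice in the genotype that picked a member. The share of all tested genes with separate groups was not counted. BC024386 (chr7:140485908-140487904), rank 2 by abundance and without a role known here, had the largest decrease in both genotypes on the log2(FPKM + 1) scale. It had 2.93, 6.02 and 1.74 FPKM in cKO IR, against 92.3, 89.4 and 81.4 in cKO sham, and 11.4, 34.5 and 5.44 in WT IR, against 113, 125 and 117 in WT sham. The groups did not overlap, and WT IR 2 kept the highest level of the IR libraries. The log2 difference was -4.39 ± 0.51 in cKO (SE, adjusted p = 6.74e-05) and -3.08 ± 0.51 in WT (adjusted p = 0.000955). Without WT IR 2 the WT difference was -3.74. With 0.1 FPKM added instead of 1 it was -4.75 in cKO and -3.19 in WT, and 4 of the members described next, Gm29012, Gm4208, Gm47708 and ENSMUSG00000120468, had larger decreases than BC024386.

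D630029K05Rik (chr10:116800612-116805010), rank 6, lies wholly opposite the predicted gene Gm10271, which averaged only 1.3 FPKM. It had 4.81, 5.26 and 4.79 FPKM in cKO IR, against 55.6, 45.7 and 67.9 in cKO sham, and 5.95, 23.5 and 4.78 in WT IR, against 75.8, 82.4 and 77.4 in WT sham. The cKO IR libraries were close to each other, while WT IR 2 was several times above the other WT IR libraries and still below every sham library. The difference was -3.25 ± 0.42 in cKO (SE, adjusted p = 0.000129) and -2.999 ± 0.42 in WT (adjusted p = 0.000391), and -3.65 in WT without WT IR 2.

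Gm29012 (chr1:105044179-105055091) and Gm4208 (chr1:62860510-62871529) had at most 2.53 FPKM in any IR library. Both were under the lowest member's mean of 2.91 FPKM there and are members through their sham levels. Gm29012 had 0.133, 0.413 and 0 FPKM in cKO IR, against 13.9, 15.1 and 11.4 in cKO sham, and 0.627, 2.02 and 0.574 in WT IR, against 13.9, 15.3 and 14.5 in WT sham. It had 1, 3 and 0 reads in the cKO IR libraries, so 3 reads of this gene model were 0.413 FPKM in cKO IR 2. None of the 3 values was above that limit of 3 reads. For a 1 kb gene model the limit is 0.176 to 0.226 FPKM over the libraries. Gm4208 had 0.123, 0.127 and 0.191 FPKM in cKO IR, against 10.2, 18.1 and 16.6 in cKO sham, and 0.347, 2.53 and 0.397 in WT IR, against 9.47, 12.3 and 9.79 in WT sham. In each genotype the IR and sham values lay far apart for both lncRNAs. Their differences were -3.62 in cKO and -2.98 in WT for Gm29012 and -3.76 in cKO and -2.60 in WT for Gm4208, with adjusted p from 2.95e-06 to 0.000226. Values this low depend on the added 1 FPKM: with 0.1 FPKM added, Gm29012 was at -5.88 in cKO and -3.85 in WT, and Gm4208 at -5.90 in cKO and -3.65 in WT.

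The other 6 of the large decreases were called in both genotypes, and none had a called interaction. C030005K06Rik, opposite Tnfaip8, had differences of -3.20 in cKO and -2.71 in WT. ENSMUSG00000120468 had -3.12 in cKO and -2.63 in WT, Gm47708 had -2.81 in cKO and -2.40 in WT, and AI314278 had -2.68 in cKO and -2.17 in WT. BC049987, which starts within 1 kb of the trehalase gene Treh, had -2.04 in cKO and -2.14 in WT, and Gm15889 had -1.82 in cKO and -2.11 in WT. All 6 had IR and sham groups that did not overlap, as the choice required in at least 1 genotype, and adjusted p of at most 0.00354. With 0.1 FPKM added, Gm47708 reached -5.58 in cKO and -4.17 in WT, and ENSMUSG00000120468 -4.77 in cKO and -3.60 in WT.

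The proximal tubule markers moved the same way: 18 of 20 were called lower in cKO with a median of -1.86, and 17 of 20 in WT with a median of -1.51. Markers of the thick ascending limb and distal tubule were lower too, at 10 of 10 in cKO (median -1.66) and 9 of 10 in WT (median -1.52). Of the members called lower, 14 in cKO and 22 in WT had a difference at or below the proximal tubule median. The matching shares of all tested genes were not counted, so these counts cannot be read as particular to the lncRNAs. The cutoff was -1.86 in cKO and -1.51 in WT, so the 2 counts are not comparable with each other. Markers of tubular injury were higher, at 11 of 12 in cKO and 12 of 12 in WT, and neutrophil markers at 4 of 4 and 3 of 4. Red cell markers were lower at 0 of 5 in cKO and 5 of 5 in WT. Whole-kidney libraries assign no lncRNA to a cell type, and the part of cell composition in the lncRNA changes was not tested.

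**Figure D3:**
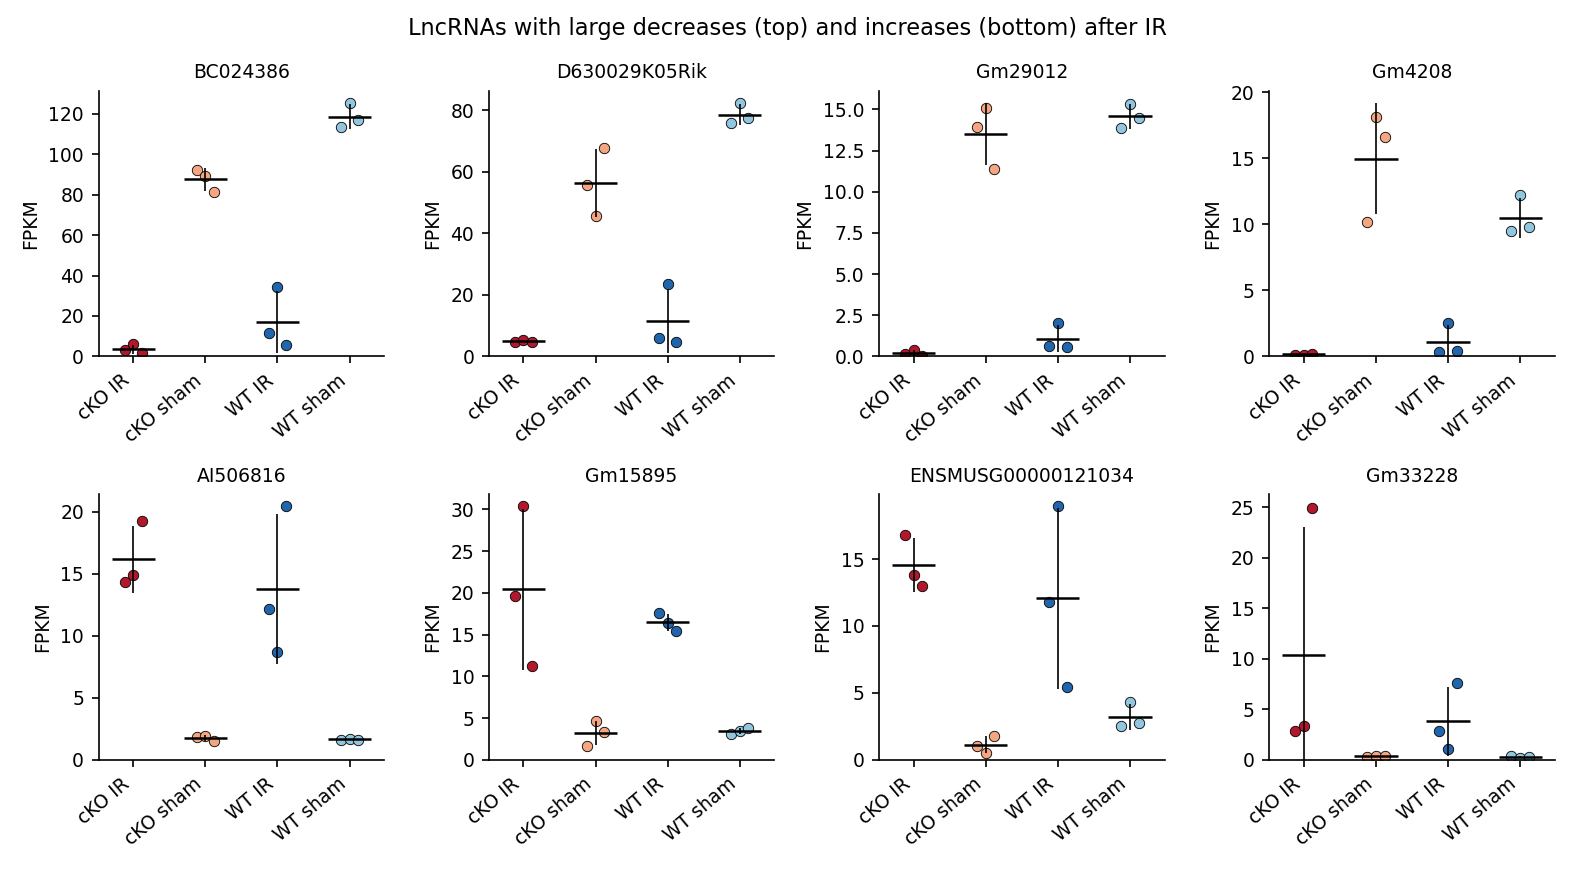
FPKM in each library (points) by group for 4 lncRNAs with large decreases after IR (top) and 4 with large increases (bottom), with group mean (bar) and SD (line, n = 3). In the top row WT IR 2 is the highest IR library. In the bottom row the spread among IR libraries differs by lncRNA and group. Gm33228 has 24.9 FPKM in 1 cKO IR library against 2.87 and 3.37 in the other libraries of the group.

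Hnf4aos (chr2:163335721-163383641), opposite the proximal tubule regulator Hnf4a, had 2.6, 3.03 and 0.674 FPKM in cKO IR, against 18.97, 13.7 and 13.6 in cKO sham, and 3.24, 7.62 and 2.17 in WT IR, against 14.5, 17.7 and 15.7 in WT sham. Its groups did not overlap, and its difference was -2.49 ± 0.38 in cKO (SE, adjusted p = 0.000346) and -1.79 ± 0.38 in WT (adjusted p = 0.00357). Hnf4a itself had -0.67 ± 0.13 (SE), adjusted p = 0.00182 in cKO and -0.29 ± 0.13 (SE), adjusted p = 0.104 in WT, the second of which was not a call. Prdm16os, with a start near that of Prdm16, was lower with -2.04 in cKO and -1.82 in WT. Lhx1os, beside the kidney development factor Lhx1, was lower with -0.68 in cKO and -0.88 in WT. Hoxb5os, at the Hoxb cluster, had -0.06 in cKO and -0.08 in WT and was not called in either. These 4 members were picked for their partners after their values were seen.

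Gm39079, rank 10, lies opposite Acsm1, a mitochondrial acyl-CoA synthetase, and was lower with -0.9999 in cKO and -1.16 in WT, beside -1.47 in cKO and -1.27 in WT for Acsm1. ENSMUSG00000121232, opposite Acmsd of the tryptophan and NAD pathway, had 1.09, 1.13 and 0.189 FPKM in cKO IR, against 15.99, 12.8 and 10.2 in cKO sham, and 3.94, 5.53 and 1.96 in WT IR, against 14.03, 11.9 and 16.3 in WT sham. Its groups did not overlap in either genotype, and its difference was -2.98 ± 0.30 in cKO (SE, adjusted p = 3.05e-05) and -1.71 ± 0.30 in WT (adjusted p = 0.00138), beside -2.06 in cKO and -1.34 in WT for Acmsd. Over all pairs of a member and an opposite-strand partner in which both genes were tested, 44 of 64 differences had the same sign in cKO and 40 of 64 in WT, with Pearson r of 0.64 and 0.59 across pairs. The 32 divergent pairs had r of 0.61 and 0.65, and the 57 members without such a position, set against the nearest protein-coding gene, 0.25 and 0.36. Signs matched in 21 of the 32 divergent pairs in cKO and 20 in WT, and in 36 and 31 of the 57. Spearman rho was 0.55 in cKO and 0.59 in WT for opposite-strand pairs, 0.50 and 0.54 for divergent pairs, and 0.37 in both genotypes for the 57. Pairs are not independent replicates, the 4 groups and all libraries are shared between them, and overlapping genes can share reads.

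AI506816 (chr5:23903294-23917684) was the increase with the smallest adjusted p in both genotypes. It had 14.4, 14.9 and 19.2 FPKM in cKO IR, against 1.86, 1.91 and 1.49 in cKO sham, and 12.2, 8.71 and 20.5 in WT IR, against 1.59, 1.72 and 1.63 in WT sham. Every IR library was far above every sham library. The difference was 2.63 ± 0.23 in cKO (SE, adjusted p = 1.49e-05) and 2.41 ± 0.23 in WT (adjusted p = 5.1e-05). The gene model holds a snoRNA row.

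Gm15895 (chr8:111532270-111534109) overlaps Il34, which encodes a ligand of the macrophage receptor Csf1r, on the opposite strand. It had 19.6, 30.4 and 11.2 FPKM in cKO IR, against 1.72, 4.61 and 3.38 in cKO sham, and 17.5, 16.4 and 15.5 in WT IR, against 3.14, 3.41 and 3.82 in WT sham. The groups did not overlap, with a difference of 2.30 ± 0.31 in cKO (SE, adjusted p = 0.000184) and 1.97 ± 0.31 in WT (adjusted p = 0.000799). Il34 had 2.39 in cKO and 2.01 in WT, both called higher.

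ENSMUSG00000121034 (chr2:167689112-167689786) had 16.8, 13.8 and 13.02 FPKM in cKO IR, against 1.03, 0.539 and 1.79 in cKO sham, and 11.8, 18.9 and 5.45 in WT IR, against 2.51, 4.34 and 2.76 in WT sham. Sham values were low throughout, and WT IR 3 was the lowest IR library, still above all WT sham libraries. Its difference was 2.91 ± 0.36 in cKO (SE, adjusted p = 9.81e-05) and 1.52 ± 0.36 in WT (adjusted p = 0.00646). ENSMUSG00000120992 (chr17:35215654-35219393), which starts 570 bases from the valyl-tRNA synthetase gene Vars, had 18.9, 29.7 and 16.5 FPKM in cKO IR, against 6.36, 7.55 and 6.54 in cKO sham, and 21.1, 11.8 and 30.3 in WT IR, against 3.02, 2.23 and 2.48 in WT sham. It was called higher in both, with 1.498 in cKO and 2.54 in WT, and Vars was at 0.99 in cKO and 0.78 in WT.

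Increases in both genotypes were also found for Gm44785 (1.56 in cKO and 1.19 in WT), 2010204K13Rik (1.44 in cKO and 0.95 in WT), Eprn (1.07 in cKO and 0.96 in WT) and Gm9951 (0.81 in cKO and 1.17 in WT). Gm33228 was called in cKO only, with 2.50 ± 0.66 (SE), adjusted p = 0.00928, and had 1.68 ± 0.66 (SE), adjusted p = 0.063 in WT. Its cKO value rested largely on cKO IR 3, being 1.61 without that library, and its call was lost on recovered reads with voom (adjusted p = 0.0566). ENSMUSG00000121069 was called higher in cKO with 1.33 ± 0.48 (SE), adjusted p = 0.0391, but was 0.71 with an adjusted p of 0.117 without cKO IR 3, and it also missed the threshold when any of 5 other libraries was left out and without the filter (adjusted p = 0.0887). Gm17024, within the stress-induced gene Ifrd1 on the same strand, was called in cKO with 1.24 ± 0.27 (SE), adjusted p = 0.0031, beside 1.52 for Ifrd1. In WT, Gm15344, within the endoplasmic reticulum chaperone gene Hsp90b1 on the same strand, was called with 1.67 ± 0.34 (SE), adjusted p = 0.0028, beside 0.78 for Hsp90b1, and Gm33051, at Rpl22l1, with 1.71 ± 0.41 (SE), adjusted p = 0.00739. Of these 5, none passed the interaction test.

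Members that carry snoRNAs, the guides of ribosomal RNA modification, had 5 of 10 members called higher in each genotype (27.8% of all tested genes in cKO and 22.6% in WT), and none called lower. The 10 are Gas5, Snhg1, Snhg8, Snhg18, Snhg20, Zfas1, Epb41l4aos, AI506816, 1110038B12Rik and 2410006H16Rik. Those called higher were AI506816, 1110038B12Rik, Gas5, Snhg1 and 2410006H16Rik. The median difference of the 10 was 0.65 in cKO and 0.32 in WT, against -0.33 and -0.37 over all 200 members.

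Gas5 (chr1:160861992-160866116), which holds 10 snoRNA rows and accumulates in growth-arrested cells, had 16.5, 12.03 and 15.4 FPKM in cKO IR, against 8.22, 5.55 and 6.14 in cKO sham, and 12.6, 8.15 and 13.4 in WT IR, against 6.81, 7.7 and 6.84 in WT sham. The groups did not overlap, and the difference was 1.04 ± 0.18 in cKO (SE, adjusted p = 0.000908) and 0.58 ± 0.18 in WT (adjusted p = 0.0264). In WT its call was lost without WT IR 1, WT IR 3, WT sham 1 or WT sham 3, with adjusted p of 0.0722 to 0.098, and without the filter on low levels (adjusted p = 0.0598). Snhg1 (chr19:8700801-8703811), which holds 8, had 4.43, 4.27 and 5.03 FPKM in cKO IR, against 2.46, 2.15 and 2.05 in cKO sham, and 3.63, 3.33 and 4.94 in WT IR, against 2.88, 2.48 and 2.96 in WT sham. Its difference was 0.79 ± 0.12 in cKO (SE, adjusted p = 0.000311) and 0.39 ± 0.12 in WT (adjusted p = 0.0229), and the WT call was lost without WT IR 3 or WT sham 2 (adjusted p = 0.0746 and 0.0826) and without the filter (adjusted p = 0.0537). 1110038B12Rik (chr17:35167235-35171498) was at 1.24 ± 0.12 in cKO (SE, adjusted p = 2.39e-05) and 0.93 ± 0.12 in WT (adjusted p = 0.000254), and 2410006H16Rik at 0.77 ± 0.10 in cKO (SE, adjusted p = 0.000111) and 0.42 ± 0.10 in WT (adjusted p = 0.00614).

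Zfas1 was at 0.24 in cKO and 0.26 in WT, Snhg8 at 0.45 in cKO and 0.15 in WT, Epb41l4aos at 0.52 in cKO and 0.02 in WT, Snhg18 at 0.07 in cKO and 0.25 in WT and Snhg20 at -0.06 in cKO and -0.32 in WT. None of these 5 passed the test in either genotype, but 4 of them did under some alternatives. Without WT IR 2, Zfas1 was called higher in WT (0.32, adjusted p = 0.0272) and in cKO (adjusted p = 0.0474), and Snhg20 lower in WT (-0.44, adjusted p = 0.0475). Zfas1 was also called in both without WT sham 2 (adjusted p = 0.0379 in cKO and 0.0201 in WT) and in cKO without cKO sham 3 (adjusted p = 0.0397). Snhg20 was called lower in WT without WT sham 1 (adjusted p = 0.0311), and Epb41l4aos higher in cKO without WT sham 2 (adjusted p = 0.00518). With plain library totals, Zfas1 was called in cKO (adjusted p = 0.0475) and WT (adjusted p = 0.0185), and Snhg18 in WT (adjusted p = 0.0238). A wider list of 21 known snoRNA host genes, chosen by name, had 16 tested genes, of which 8 were higher and 1 lower in cKO (27.8% and 23.1% of all tested genes), and 5 higher and 1 lower in WT (22.6% and 19.5% of all). Its medians were 0.46 and 0.26, and the lower gene, Snhg11, is listed as protein-coding in the table.

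**Figure D4:**
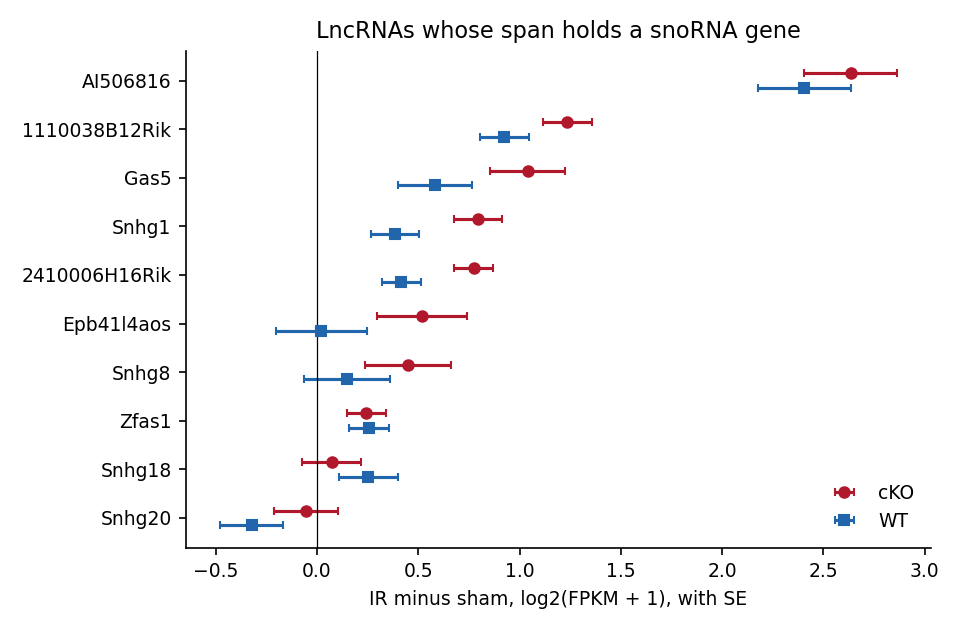
IR minus sham difference on the log2(FPKM + 1) scale with its SE for the 10 lncRNAs whose span holds a snoRNA gene, in cKO (circles) and WT (squares). AI506816, 1110038B12Rik, Gas5, Snhg1 and 2410006H16Rik lie above 0 in both genotypes by more than 3 SE; Snhg20 lies below 0 in both and was not called.

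A list of 17 nuclear and chromatin lncRNAs had 5 tested genes, of which Malat1, Neat1 and Firre are members; 1 was higher and 1 lower in cKO (27.8% and 23.1% of all tested genes), and none was called in WT (22.6% and 19.5% of all). Malat1 had 358, 351 and 308 FPKM in cKO IR, against 277, 271 and 205 in cKO sham, and 323, 329 and 352 in WT IR, against 281, 361 and 269.9 in WT sham. The cKO groups did not overlap, while the WT groups did. It was called higher in cKO (0.44 ± 0.14 (SE), adjusted p = 0.0251) and not in WT (0.15 ± 0.14 (SE), adjusted p = 0.434), and the interaction was 0.29 ± 0.20 (SE), adjusted p = 0.556. The cKO call was lost without cKO IR 1, cKO IR 2 or cKO sham 3, with adjusted p of 0.0716 to 0.102. It was also lost with TMM scaling (0.41, adjusted p = 0.053) and without the filter (adjusted p = 0.0697). Neat1, the scaffold of paraspeckles, had 46.6, 53.04 and 18.9 FPKM in cKO IR, against 36.1, 40.7 and 38.5 in cKO sham, and 39.7, 40.5 and 24.8 in WT IR, against 44.04, 58.8 and 45.99 in WT sham. Its cKO groups overlapped and its WT groups did not, and it was called in neither, with -0.08 ± 0.33 in cKO (SE, adjusted p = 0.847) and -0.51 ± 0.33 in WT (adjusted p = 0.231). Without cKO IR 3 it was called lower in WT (adjusted p = 0.043).

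Norad, which binds Pumilio proteins, was close to level with 0.005 ± 0.07 in cKO (SE, adjusted p = 0.96) and -0.07 ± 0.07 in WT (adjusted p = 0.47). Firre, an X-linked nuclear RNA, had 0.11 in cKO and -0.08 in WT and was not called either. Oip5os1, known in vertebrates as Cyrano and as a partner of miR-7, was called lower with -0.28 ± 0.07 in cKO (SE, adjusted p = 0.00803) and -0.39 ± 0.07 in WT (adjusted p = 0.00175). With plain library totals its cKO call was lost (adjusted p = 0.0627). The imprinted Peg13, within Trappc9, was called lower with -0.41 ± 0.10 in cKO (SE, adjusted p = 0.00683) and -0.53 ± 0.10 in WT (adjusted p = 0.00227), beside -0.42 in cKO and -0.39 in WT for Trappc9. Peg13 was the only imprinted lncRNA of a list of 10 that reached the test, since the other 8 with a row, H19, Meg3 and Kcnq1ot1 among them, averaged under 1 FPKM.

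A list of 20 lncRNAs linked to stress or injury had 9 tested genes, with 4 higher and 2 lower in cKO (27.8% and 23.1% of all tested genes) and 1 higher and 3 lower in WT (22.6% and 19.5% of all), and its members here are Gas5, Malat1, Mir22hg, Neat1, Norad and Oip5os1. Of 20 genes on a list of miRNA hosts, 3 were tested, namely Mir17hg, Mir22hg and Mirt2. Mirt2 is also on the stress or injury list, and whether it holds a miRNA was not checked. All 3 were higher in cKO, beside the same shares of all tested genes. In WT, Mir17hg was higher, Mir22hg lower and Mirt2 not called. Only Mir22hg is a member. A list of 6 rRNA-like loci has no member.

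The other members among the 10 most abundant moved less. Gm15347, rank 3 and opposite the flippase gene Atp11a, had -0.43 ± 0.25 in cKO (SE, adjusted p = 0.182) and -0.61 ± 0.25 in WT (adjusted p = 0.0716). In WT it was called lower without WT IR 2 (-0.77, adjusted p = 0.041) and without cKO IR 3 (adjusted p = 0.037). Gm10076 had -0.60 in cKO and -1.10 in WT and Gm12121 0.08 in cKO and -0.38 in WT, neither called. ENSMUSG00000121141, just downstream of Cmip, was called lower in WT (-0.63 ± 0.13 (SE), adjusted p = 0.00268) and had -0.18 ± 0.13 (SE), adjusted p = 0.269 in cKO. Without cKO IR 1 it was called in cKO as well (-0.33, adjusted p = 0.0248).

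Few of these lncRNAs were called for genotype. In sham kidneys, 1 of 200 was called higher in cKO (0.847% of all tested genes were) and 1 lower (0.256% of all). An unadjusted p under 0.05 was found for 32 members and for 1472 of all 12868 tested genes. After IR, none was called in either direction by limma (0% of all tested genes), with 34 members and 1926 genes at an unadjusted p under 0.05, and voom on recovered reads also called none of the members. The difference between genotypes in the effect of IR was called for 2 members, both with a more positive change in cKO (0.295% of all tested genes). None was called in the other direction (0.583% of all), and 40 members and 1878 genes had an unadjusted p under 0.05. The comparisons share libraries and are not independent of each other.

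Gm20400 (chr6:142107219-142119522) lies wholly opposite Slco1a6, an organic anion transporter gene. It had 4.37, 5.07 and 5.57 FPKM in cKO sham, against 16.3, 17.3 and 12.6 FPKM in WT sham, and 7.15, 7.77 and 5.84 FPKM in cKO IR, against 2.92, 5.4 and 7.39 FPKM in WT IR. The WT sham libraries stood above all the others, and cKO sham lay entirely below them. The difference in sham was -1.44 ± 0.23 (SE), adjusted p = 0.0144, while Slco1a6 had -0.32 ± 0.15 (SE), adjusted p = 0.448. After IR, Gm20400 was lower in WT (-1.45 ± 0.23 (SE), adjusted p = 0.000858) and was not called in cKO (0.40 ± 0.23 (SE), adjusted p = 0.181), and the interaction was 1.85 ± 0.33 (SE), adjusted p = 0.0308. The sham call was lost without WT sham 2 or any of the 3 cKO sham libraries, with adjusted p of 0.0503 to 0.085. The interaction call was lost in the same cases and without WT sham 1, cKO IR 1 or cKO IR 2 (adjusted p = 0.0555 to 0.0939), with the replicate block (adjusted p = 0.0562) and without the filter (adjusted p = 0.0708).

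Mir22hg (chr11:75352365-75357502), the host of the miR-22 printed above, had 29.7, 27.8 and 24.5 FPKM in cKO IR, against 22.5, 20.8 and 16.9 FPKM in WT IR. In sham it had 21.9, 19.2 and 20.4 FPKM in cKO sham, against 28.2, 26.5 and 25.8 FPKM in WT sham. Both pairs of groups were separate, cKO above WT after IR and cKO below WT in sham. It was called higher after IR in cKO (0.39 ± 0.11 (SE), adjusted p = 0.0109) and lower in WT (-0.41 ± 0.11 (SE), adjusted p = 0.0113), with an interaction of 0.81 ± 0.15 (SE), adjusted p = 0.0393. Its span lies almost wholly within Tlcd2 on the same strand, which was lower in both genotypes (-0.55 in cKO and -0.88 in WT). The other 4 members whose span holds a miRNA row, E130102H24Rik, Gm53, Gm27028 and Snhg20, were called in neither genotype. Leaving out any one of 9 libraries raised the interaction's adjusted p to 0.0505 to 0.114, and the call held only without WT IR 1, WT IR 3 or cKO IR 3. It was also lost without the filter (adjusted p = 0.0707). The summed FPKM of 6 lymphocyte markers had the same order of groups as Mir22hg within each genotype, at 4.49 to 7.07 in cKO IR, against 1.44 to 4.23 in cKO sham, and 3.74 to 9.79 in WT IR, against 15.7 to 28.6 in WT sham. The 1 of the 6 that was tested had a difference after IR of 1.65 in cKO and -1.64 in WT and an interaction of 3.29, all called, and its part in the Mir22hg result was not tested.

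ENSMUSG00000120343 (chr11:20691718-20692910), which starts 129 bases from Aftph in the divergent direction, had 4.54, 3.4 and 4.2 FPKM in cKO sham, against 1.92, 1.62 and 1.77 FPKM in WT sham. The groups did not overlap, and the difference was 0.86 ± 0.16 (SE), adjusted p = 0.0309. Aftph had -0.0018. The call was lost when any of the 6 sham libraries was left out, with adjusted p of 0.058 to 0.142, with voom (adjusted p = 0.0692) and without the filter (adjusted p = 0.0694). In these sham groups the summed FPKM of the 6 lymphocyte markers was lower in cKO, as given above. Only 1 of the 6 averaged 1 FPKM or more, and it was called lower in cKO sham (-3.38). The summed FPKM of 5 red cell markers was 194 to 270 in cKO and 281 to 906 in WT. Whether these bear on the genotype differences was not tested.

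**Figure D5:**
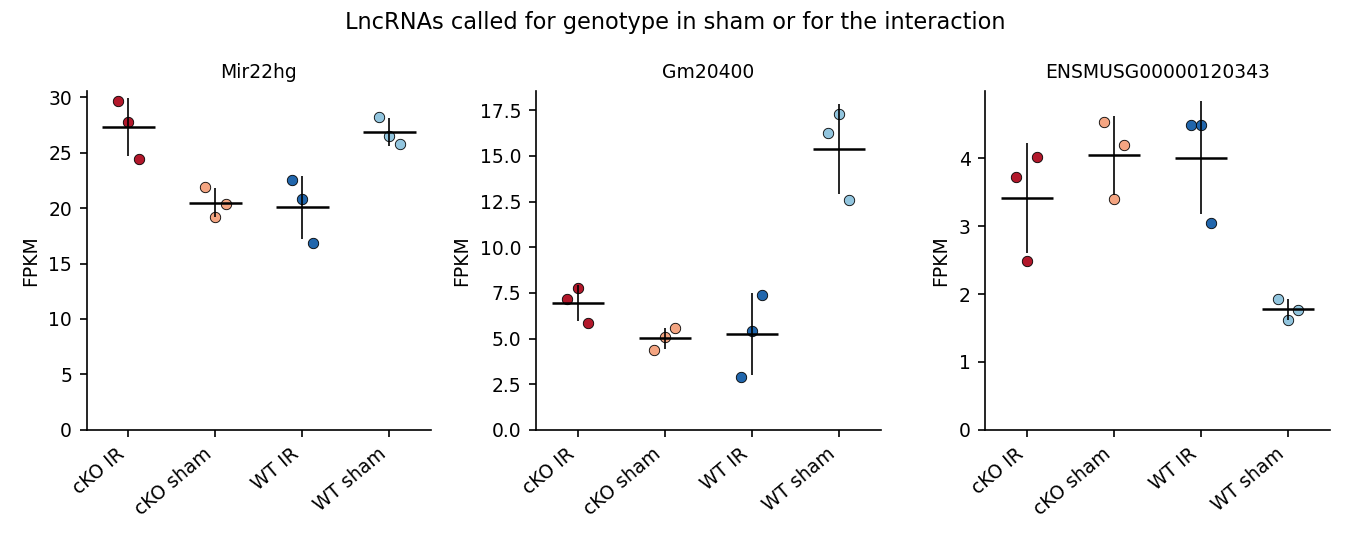
FPKM in each library (points) by group for Mir22hg, Gm20400 and ENSMUSG00000120343, with group mean (bar) and SD (line, n = 3). Mir22hg is higher in cKO IR than in cKO sham and lower in WT IR than in WT sham, the WT sham libraries are the highest for Gm20400, and they are the lowest for ENSMUSG00000120343.

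Among members not called for genotype after IR, the smallest p-values with a higher level in cKO were those of ENSMUSG00000121093, Mir22hg and Gm8066. ENSMUSG00000121093 had 5.65, 6.24 and 8.34 FPKM in cKO IR, against 3.76, 2.61 and 4.79 FPKM in WT IR, a difference of 0.73 ± 0.18 (SE), adjusted p = 0.169. Gm8066, wholly opposite the erythropoietin gene Epo, had 3.74, 4.26 and 6.81 FPKM in cKO IR, against 2.55, 3.07 and 2.08 FPKM in WT IR, a difference of 0.71 ± 0.18 (SE), adjusted p = 0.173. Epo itself was under the filter, with at most 0.401 FPKM in any library. With a lower level in cKO they were ENSMUSG00000121232 (-1.39 ± 0.30 (SE), adjusted p = 0.149), Gm12678 (-1.41 ± 0.36 (SE), adjusted p = 0.173) and Gm10451 (-0.48 ± 0.13 (SE), adjusted p = 0.175). For the interaction, the smallest p-values below 0 were those of ENSMUSG00000120343 (-1.04 ± 0.23 (SE), adjusted p = 0.0611), C730036E19Rik (-1.72 ± 0.40 (SE), adjusted p = 0.0798) and Gm10451 (-0.71 ± 0.18 (SE), adjusted p = 0.0991), none of which passed the threshold. ENSMUSG00000120343 passed it with plain library totals (adjusted p = 0.0448) and without WT IR 3 (adjusted p = 0.0391), and C730036E19Rik without cKO IR 2 (adjusted p = 0.0266).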

How the data were processed

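RNA sequencing of 12 mouse kidney libraries gave 1 deposited table with the length of each gene model and 1 FPKM column per library. Per the submitters' processing notes, reads were aligned with HISAT2 2.2.1 and the builds mm8 and mm9 are named; how reads were counted, and on which annotation, is not given in the sources used here. The FPKM values as deposited by the authors, multiplied by gene length, were whole multiples of 1 step per library (largest distance from a whole number 1.34e-09), which gave the reads. The divisor behind the FPKM was 0.933 to 0.990 times the reads of a library in sham and 1.00 to 1.13 times in IR. The deposited scaling therefore puts IR levels lower relative to sham than plain library totals do. Limits from 3 reads cover counting error only.

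Members, lists and tests were chosen with earlier results of these data known. Groups came from the titles. FPKM was transformed as log2(FPKM + 1), where differences of low genes are understated, and the 12868 genes that averaged 1 FPKM or more were fitted with limma 3.58.1 (R 4.3.3), with 1 mean per group, 8 residual and 2.59 prior degrees of freedom and a variance trend. Tests were two-sided, adjusted by Benjamini-Hochberg over all genes, and called under 0.05. The fit was tested on simulated data.

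Named members are the 10 most abundant, the 10 largest called differences per direction after IR among those with separate groups, up to 6 called members (or the 3 smallest p-values) per direction for genotype and interaction, and members of the role lists. Prdm16os, Lhx1os and Hoxb5os were added for their partners, and some others for a snoRNA or miRNA row in their span. Partners were assigned from the table's coordinates. Promoter and miRNA sequences are RefSeq's on GRCm38.p6, and 75 of 200 members had a promoter window by symbol. Alternatives were another pseudocount, no filter, other scalings, a replicate block, no variance trend, each library left out, and voom, which was chosen after seeing the data. The count-model tests planned were not run, because the table holds FPKM. Some loci are not reported here.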

Additional observations from a re-analysis of the deposited data

Results flagged for a closer look

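The change after IR differed between the genotypes for 2 of the 200 lncRNAs by limma's interaction test with Benjamini-Hochberg adjustment. For Mir22hg the effect of IR in cKO minus that in WT was 0.81 on the log2 scale (SE 0.15, adjusted p = 0.0393); every cKO IR library lay above every cKO sham library and every WT IR library below every WT sham library. For Gm20400 it was 1.85 (SE 0.33, adjusted p = 0.0308), and this call was lost with the replicate block (adjusted p = 0.0562). Both calls were lost without the filter on low levels (adjusted p = 0.0707 for Mir22hg and 0.0708 for Gm20400). For Gm20400 the WT sham libraries stood above all the others, and the cKO sham libraries lay below every cKO IR library. Its call was lost without WT sham 1 or WT sham 2. It was also lost without cKO sham 1, cKO sham 2, cKO sham 3, cKO IR 1 or cKO IR 2, so it depends on both genotypes. Over 12868 genes, 38 interactions were called above 0 and 75 below.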

How the results depend on the processing

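Depth limits the less abundant members, 110 of the 200 lying under 5 FPKM. The counts after IR stayed within 1.5 times of those given under every setting run: leaving out single libraries gave 69 to 90 lower and 24 to 31 higher in cKO, and 60 to 91 lower and 20 to 27 higher in WT. The genotype counts did not. For cKO against WT in sham, members higher numbered 0 without a filter and 0 with voom, and 0 to 2 when single libraries were left out, and members lower 0 to 3. For the interaction, members above 0 numbered 0 without a filter, 1 with the replicate block and 0 to 2 when single libraries were left out; members below 0 numbered 1 with plain library totals and 0 to 2 when libraries were left out. The causes were not tested. Without a filter, 31723 genes entered both the fit and the adjustment, so the number of genes was not tested apart from the changed fit.

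Of the values for single members under an alternative, 1643 kept direction and call, 53 lost a call, 18 gained one and 15 changed sign. In WT, Norad was 0.0795 and Firre 0.0655 with plain library totals. Leaving out single libraries, Firre ran over -0.169 to 0.0427, Snhg8 over -0.0345 to 0.31 and Epb41l4aos over -0.152 to 0.336 in WT, and Neat1 over -0.354 to 0.366, Gm12121 over -0.145 to 0.275, Norad over -0.0549 to 0.0638, Snhg18 over -0.00319 to 0.204 and Snhg20 over -0.158 to 0.0655 in cKO. Norad in cKO was also -0.0333 with TMM and -0.0323 with voom. None of these 15 had been called, and their causes were not tested.

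Whether replicate numbers pair the libraries could not be decided from the correlations of their deviations, because the ranges overlapped. Same-numbered libraries of different groups had -0.19 to 0.40, the highest for WT IR 3 with cKO IR 3. Differently numbered ones had -0.33 to 0.26. With the replicate block, 27 members were higher and 82 lower in cKO after IR and 27 higher and 78 lower in WT, and the interaction of Gm20400 had an adjusted p of 0.0562. The planned edgeR and DESeq2 fits were not run, because the table holds FPKM.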
